A study of Eutrema salsugineum with 41 samples.

Results

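AtCMT3-L3 plants, the highest expressers of the transgene, were set against plants of 2 other lineages that express it at a lower level. Eutrema salsugineum is a salt-tolerant relative of Arabidopsis thaliana that lacks the DNA methyltransferase CMT3. The study returned A. thaliana CMT3 to it as a genomic copy under its own A. thaliana promoter (pAtCMT3::gAtCMT3) in the Shandong ecotype. The comparison uses 5 of the 41 samples of the series and 5 of its 10 RNA-seq libraries, each made from leaf RNA of 1 plant (cauline leaves per the study's methods). AtCMT3-L3T2 and AtCMT3-L3T2b are 2 plants of the T2 generation of lineage 3. AtCMT3-L1T5, AtCMT3-L2T5 and AtCMT3-L2T6 are a T5 plant of lineage 1 and a T5 and a T6 plant of lineage 2. All 5 plants descend from plants transformed with the same construct, and wild type was not used. The 5 libraries were chosen because their deposited columns share 1 unit, TPM, in which a gene's length-scaled share of the library is given per 1000000 transcripts.

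The plants of a group are relatives. The AtCMT3-L3 plants, both T2 plants of 1 independently transformed lineage, are taken here as sisters, although the study's text does not name their parent. AtCMT3-L2T6 descends from AtCMT3-L2T5, and lineage 1 is represented by a single plant. AtCMT3-L3 is both the only T2 material and the only lineage 3 material, so the AtCMT3 level, the lineage with its transgene insertion sites, and the generation cannot be told apart in any difference described here. Nothing in the labels says that the plants were grown or sampled together, so p-values measure only the spread between these 5 libraries.

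CMT3 is a chromomethylase. Its chromodomain and BAH domain bind histone H3 methylated at lysine 9 and it methylates cytosines in the CHG context, after which H3K9 methyltransferases bind the methylated DNA, so that both marks maintain each other in silent chromatin. In A. thaliana it acts mainly on transposons and repeats, and the histone demethylase IBM1 keeps the pair of marks out of active genes. Gene body methylation (gbM) is the CG methylation found within the transcribed part of many moderately expressed housekeeping genes, and species without CMT3 such as E. salsugineum lack it.

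AtCMT3 placed the plants in the groups, and its values are given as a description with no test. The transgene's transcript was measured at 234 TPM in the plant AtCMT3-L3T2 and 372 TPM in its sister AtCMT3-L3T2b, against 97.8, 62.7 and 5.39 TPM in the plants AtCMT3-L1T5, AtCMT3-L2T5 and AtCMT3-L2T6. The lower AtCMT3-L3 plant was thus 2.39-fold above the highest plant of the other lineages, and the group means differed 5.48-fold. Among the lower expressers the highest and the lowest plant lay 18.2-fold apart, a wider range than the 1.59-fold between the sisters.

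**Figure D1:**
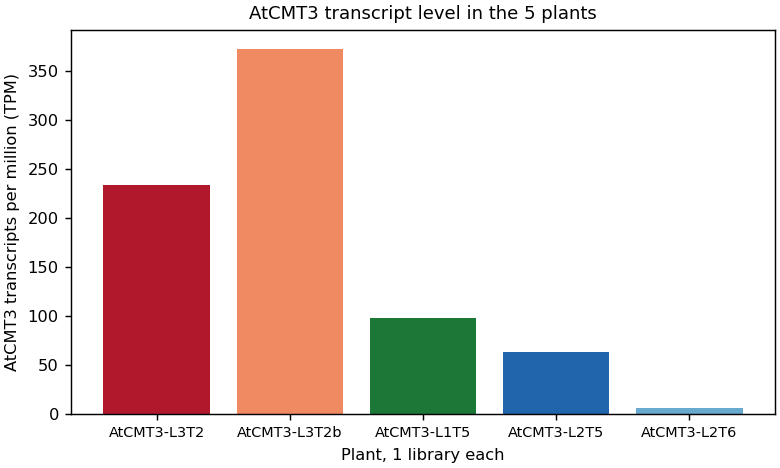
AtCMT3 transcript level in TPM (y axis, from 0) in each of the 5 plants (x axis, 1 library per plant, no error bars). Both AtCMT3-L3 plants, at 234 and 372 TPM, stand above the 97.8, 62.7 and 5.39 TPM of the AtCMT3-L1 and AtCMT3-L2 plants.

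Each of the 5 columns summed to 1000000, and genes above 0 numbered 19270 to 19587 per library, so the libraries were alike in detection; the reads behind a single value are unknown. They differed in how much of the total the most abundant transcripts took. The 10 highest genes held 8.27% and 6.97% of the TPM in AtCMT3-L3T2 and AtCMT3-L3T2b, against 9.12%, 12.3% and 12.1% in AtCMT3-L1T5, AtCMT3-L2T5 and AtCMT3-L2T6. The median of log2(TPM + 1) over the genes tested ran the other way, at 4.28 and 4.41 in the AtCMT3-L3 plants against 4.22, 4.09 and 4.26 in the same 3 plants. The median difference over all genes tested was therefore 0.17 on the log2 scale, higher in AtCMT3-L3, and a gene at that value lies at the middle of all genes. The counts below are therefore also given with every library set to the same median.

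The leaf label was checked on orthologs of leaf genes. PSBS, the photosystem II protein of non-photochemical quenching, stood at 998 and 1142 TPM in the AtCMT3-L3 plants, against 1134, 1641 and 1401 TPM in AtCMT3-L1T5, AtCMT3-L2T5 and AtCMT3-L2T6. GOX1, a glycolate oxidase of photorespiration whose neighbour GOX2 is a close copy that could share its reads, stood at 1558 and 1951 TPM against 1444, 1612 and 736.5 TPM in the same order. Both were abundant in all 5 plants. The root iron uptake factor FIT stood at 5.75 and 6.51 TPM in the AtCMT3-L3 plants and at 5.92, 5.11 and 5.76 TPM in the others. Of the floral list of 2 genes, the carpel factor SHP2 was listed at 0 in all 5 plants, while the floral organ factor SEP2 was not, as given below. The summed level of 11 genes of dividing cells was 63.1 and 54.2 TPM in the AtCMT3-L3 plants, against 62.4, 45.3 and 34.0 TPM in the others, and AtCMT3-L1T5 lay within the range of the sisters.

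The transcriptomes of the 5 plants did not fall into the 2 groups. AtCMT3-L3T2 was closer to AtCMT3-L1T5 than to its own sister. Between AtCMT3-L3T2 and AtCMT3-L1T5, 301 of 17362 genes lay 2 or more apart on the log2(TPM + 1) scale, the fold cutoff in the study's methods. Between the AtCMT3-L3 sisters there were 445 such genes, and between AtCMT3-L2T5 and its offspring AtCMT3-L2T6 there were 300. AtCMT3-L3T2b and AtCMT3-L1T5 differed at 452 genes, about as many as the sisters did. Against the lineage 2 plants, the AtCMT3-L3 plants differed at 925 to 1028 genes, and AtCMT3-L1T5 itself differed from them at 634 and 649. Pearson's r over genes on the log2 scale gave the same picture, with 0.929 between the sisters, 0.940 between AtCMT3-L3T2 and AtCMT3-L1T5, and 0.852 to 0.864 between AtCMT3-L3 and lineage 2 plants. Genes are not independent replicates, and these values describe the libraries only.

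**Figure D2:**
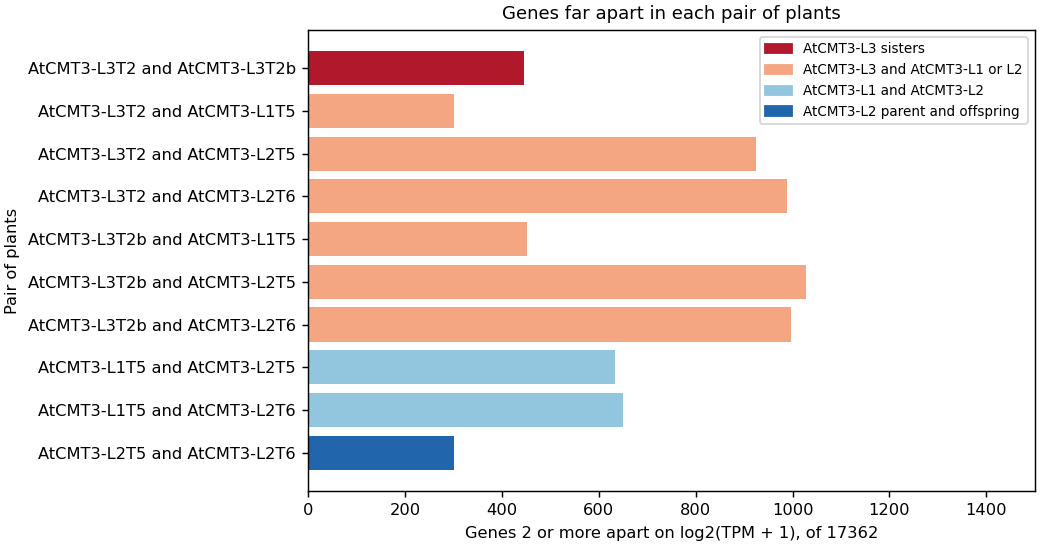
Number of the 17362 genes tested that lie 2 or more apart on log2(TPM + 1) (x axis) in each of the 10 pairs of plants (y axis), coloured by how the plants are related. The AtCMT3-L3 plants lie 301 and 452 genes from AtCMT3-L1T5 but 925 to 1028 genes from the lineage 2 plants, and the sisters differ at 445.

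No gene passed the test between the groups. With limma on log2(TPM + 1) over the 17362 genes with a mean of at least 1 TPM, 0 genes (0%) had a Benjamini-Hochberg adjusted p below 0.05. The smallest adjusted p was 0.079, and 2150 genes had an unadjusted p below 0.05, of which 1365 (7.86%) were higher and 785 (4.52%) lower in AtCMT3-L3. Without AtCMT3-L1T5, limma called 64 genes in AtCMT3-L3 against the lineage 2 plants, 21 higher and 43 lower. Their adjusted p was at least 0.047, just below the threshold of 0.05. That fit sets 2 relatives of 1 lineage against 2 of another and counts each plant as a replicate. At 58 of the 64, AtCMT3-L1T5 also lay beyond both AtCMT3-L3 plants on the lineage 2 side. The 64 were selected for a wide distance between AtCMT3-L3 and lineage 2. The share over all genes is not given, so the 58 are a description only. The 6 of the 64 with an A. thaliana ortholog were AT1G73480, AT1G78070, MYB50 and JAZ1, all higher, and SAUR61 and AT1G67400, both lower, with values below. With all 5 plants, a pseudocount of 0.1 gave 2 calls in each direction, as did the lineage as a block. The block fit had a negative consensus correlation of -0.29. It thus took plants of 1 lineage as less alike than plants of different lineages, so its calls carry little weight. The exact permutation test of a single gene with 2 plants against 3 has 10 splits and cannot give a p below 0.1.

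Because the test called no gene, the differences are described by separation, in which both AtCMT3-L3 plants lie above, or both below, all 3 plants of the other lineages. In all, 4669 genes (26.9% of those tested) were higher and 1608 (9.26%) lower in this sense, 36.2% together. With every library set to the same median these counts became 2831 higher and 2610 lower, so 74.4% of the separated genes were higher as deposited and 52.0% after the shift. The balance of higher and lower genes thus depended on how the libraries were scaled. A common median takes the overall shift away by design (median difference 0.019). The near-even split therefore cannot show what the larger number of higher genes reflects. A gap of at least 1 on the log2 scale between the nearest plants of the groups was found at 92 higher genes (0.53%) and 164 lower genes (0.945%), 1.47% together. At the same median 67 and 207 genes had such a gap, and these include 67 of the 92 higher genes and all 164 lower ones.

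Among genes with a gap of at least 1, the median gap was 1.37 for lower and 1.31 for higher genes. The largest was 7.33 for lower and 3.26 for higher genes. A gap of at least 2 was found at 19 of the 164 lower genes and 8 of the 92 higher genes. The widest gap was 7.33 on the log2 scale at Thhalv10028304m, which was listed at 0 in both AtCMT3-L3 plants, against 160, 463 and 196 TPM in AtCMT3-L1T5, AtCMT3-L2T5 and AtCMT3-L2T6. The groups are far apart at this gene, with limma's adjusted p at 0.079. Thhalv10014734m stood at 0.485 and 1.61 TPM in the AtCMT3-L3 plants, against 33.9, 69.5 and 34.1 TPM in the same order of plants, a log2 difference of -4.49 ± 0.43 (SE) with an adjusted p of 0.21. Of the higher genes, Thhalv10014716m stood at 9.02 and 8.60 TPM in AtCMT3-L3T2 and AtCMT3-L3T2b and was listed at 0 in each of the other 3 plants, with an adjusted p of 0.079. Thhalv10006221m stood at 191 and 312 TPM in the AtCMT3-L3 plants, against 32.8, 15.2 and 7.99 TPM in the others, with an adjusted p of 0.32. The tables at hand give these 4 identifiers no name. Over the whole table, 8 genes were listed at 0 in both AtCMT3-L3 plants and stood at 1 TPM or more in each of the others, and 5 genes showed the reverse.

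AtCMT3-L1T5 was most often the nearest plant to the AtCMT3-L3 sisters. Of the 92 higher genes with a gap of at least 1, the nearest of the 3 lower expressers was AtCMT3-L1T5 at 70 (76.1%), AtCMT3-L2T6 at 14 and AtCMT3-L2T5 at 8. Of the 164 lower genes it was AtCMT3-L1T5 at 119 (72.6%), AtCMT3-L2T5 at 24 and AtCMT3-L2T6 at 21. Over all separated genes, AtCMT3-L1T5 was the nearest at 2895 of 4669 higher genes (62.0%) and at 1075 of 1608 lower genes (66.9%). Without AtCMT3-L1T5 the genes with such a gap numbered 677 higher and 601 lower. Fewer plants then have to be separated, and leaving out each other plant in turn also raised the count, to 512 higher and 445 lower without AtCMT3-L3T2, to 213 and 435 without AtCMT3-L3T2b, to 108 and 201 without AtCMT3-L2T5 and to 118 and 204 without AtCMT3-L2T6.

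Names came from a table of A. thaliana orthologs that was at hand in part. It covers genes that gained CHG methylation in AtCMT3-L1 or AtCMT3-L2 plants, and holds 1998 E. salsugineum genes, of which 1698 passed the expression filter. Gene names below are those of the orthologs and the roles are those known in A. thaliana. Only 6 of the 92 higher and 8 of the 164 lower genes have such a name, so most of the widest differences are at genes without one here. The 12 named genes with the widest gap in each direction are described. Their adjusted p in limma lay between 0.267 and 0.363, so none passed the test.

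Among the higher genes with an ortholog in the table, the floral MADS-box factor SEP2 had the widest gap. SEP2 stood at 8.92 and 47.5 TPM in AtCMT3-L3T2 and AtCMT3-L3T2b, against 1.85, 0.608 and 0.0996 TPM in AtCMT3-L1T5, AtCMT3-L2T5 and AtCMT3-L2T6, a log2 difference of 3.68 ± 0.77 (SE from limma, n = 2 and 3 plants, as for all differences below). Its relative SEP4 (AT2G03710), named after its values were seen, stood at 45.5 and 27.0 TPM in the AtCMT3-L3 plants, against 9.33, 16.5 and 9.37 TPM. Both are members of the E class, which assembles the complexes that specify floral organs. Both were separated higher, as were 26.9% of all genes, while the carpel gene SHP2 stayed at 0. Whether the AtCMT3-L3 samples held any floral tissue was not tested.

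On the heat list of 11 orthologs, 3 (27.3%) were separated higher and 1 (9.09%) lower, near the 26.9% and 9.26% of all genes. HSFA2, a factor strongly induced by heat in A. thaliana, stood at 61.3 and 187 TPM in AtCMT3-L3T2 and AtCMT3-L3T2b, against 24.3, 3.93 and 13.1 TPM in AtCMT3-L1T5, AtCMT3-L2T5 and AtCMT3-L2T6, a log2 difference of 3.16 ± 0.82. HSFA1E, one of the master regulators that switch on HSFA2, stood at 18.3 and 29.0 TPM against 10.6, 10.5 and 9.64 TPM, a difference of 1.10 ± 0.25. At both, AtCMT3-L3T2b stood highest of the 5 plants. HSFA1D was at 16.2 and 16.6 TPM in AtCMT3-L3 against 15.2, 7.64 and 10.2 TPM, nearly level with AtCMT3-L1T5. HSFA8 ran the other way, at 12.5 and 13.0 TPM in the AtCMT3-L3 plants against 19.2, 35.3 and 34.4 TPM. The other 7 members, which include the chaperones CLPB4, CPN60A and HOP2, overlapped between the groups. The list's median difference was 0.23, beside 0.17 over all genes, with 0 members called by limma.

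The other higher genes with a name showed mostly a pattern with AtCMT3-L1T5 in between. AT1G73480, of the monoacylglycerol lipase family, stood at 513 and 581 TPM in AtCMT3-L3T2 and AtCMT3-L3T2b, against 207, 20.0 and 25.8 TPM in AtCMT3-L1T5, AtCMT3-L2T5 and AtCMT3-L2T6. The F-box gene SKP2A (AT1G21410), which targets cell cycle factors for degradation, stood at 217 and 221 TPM, against 129 TPM in AtCMT3-L1T5 and 38.8 and 26.6 TPM in the lineage 2 plants. In both genes AtCMT3-L1T5 is well below the sisters and far above lineage 2. The WD40-repeat gene AT1G78070 followed this order with 160 and 135 TPM against 61.1, 26.0 and 24.4 TPM, and the MYB factor MYB50 (AT1G57560) with 11.3 and 13.0 TPM against 6.32, 1.28 and 1.47 TPM. TFIIIA (AT1G72050), which drives transcription of 5S ribosomal RNA, stood at 129 and 140 TPM against 57.6, 22.2 and 40.1 TPM, a difference of 1.82 ± 0.42. These 5 genes therefore differ among the lower expressers as well as between the groups.

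At NF-YA7 and AT3G03790 the lower expressers lay close together. NF-YA7 (AT1G30500), a subunit of the CCAAT-binding factor, stood at 65.9 and 76.7 TPM in the AtCMT3-L3 plants, against 34.2, 29.3 and 38.3 TPM in AtCMT3-L1T5, AtCMT3-L2T5 and AtCMT3-L2T6, a log2 difference of 1.05 ± 0.21. AT3G03790, with ankyrin and RCC1 repeats, stood at 55.8 and 67.7 TPM against 32.0, 28.7 and 24.5 TPM, a difference of 1.10 ± 0.22. At these genes the standard error is small and all 3 lower expressers stand at about the same level. The trichome branching gene BLT (AT1G64690) stood at 54.4 and 101 TPM against 32.5, 20.3 and 20.2 TPM. AT1G58520 stood at 168 and 176 TPM against 83.1, 60.7 and 31.9 TPM, so that its lower expressers differed more widely.

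Among the lower genes with a name were FHY1 and HBI1, which act in light signalling and growth. AT3G06070 had the widest gap of the lower genes with an ortholog in the table, at 49.9 and 28.9 TPM in AtCMT3-L3T2 and AtCMT3-L3T2b, against 183, 343 and 329 TPM in AtCMT3-L1T5, AtCMT3-L2T5 and AtCMT3-L2T6, a log2 difference of -2.82 ± 0.40. FHY1 (AT2G37678), which carries phytochrome A into the nucleus, was listed at 0 in AtCMT3-L3T2 and stood at 0.911 TPM in AtCMT3-L3T2b, against 5.78, 5.37 and 11.4 TPM in the others. HBI1 (AT2G18300), a bHLH factor that promotes cell elongation, stood at 57.4 and 17.0 TPM against 173, 173 and 310 TPM, a difference of -2.71 ± 0.57. All 3 were lower in both sisters, and at HBI1 the sisters themselves lay 1.70 apart on the log2 scale.

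The auxin-responsive SAUR61 (AT1G29420) stood at 1.17 and 0.195 TPM in the AtCMT3-L3 plants, against 3.98 TPM in AtCMT3-L1T5 and 26.0 and 26.9 TPM in AtCMT3-L2T5 and AtCMT3-L2T6. KS (AT1G79460), the ent-kaurene synthase of gibberellin synthesis, stood at 3.81 and 4.47 TPM against 9.11, 15.6 and 14.9 TPM, a log2 difference of -1.44 ± 0.29. AtCMT3-L1T5 was again the nearest of the lower expressers at both genes. On the list of 11 development genes, the auxin response factor ARF19 stood at 5.63 and 6.91 TPM against 9.06, 20.1 and 15.8 TPM, and the receptor kinase ER at 24.3 and 16.9 TPM against 28.0, 38.5 and 35.4 TPM. Of the 10 members tested, these 2 (20.0%) were separated lower and 0 higher, beside 9.26% lower and 26.9% higher of all genes, and the other 8 overlapped. The median difference of the list was -0.22, beside 0.17 over all genes.

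Genes of salicylic acid and defence differed in direction. UGT74F2 (AT2G43820), which attaches glucose to salicylic acid, stood at 1.90 and 3.24 TPM in AtCMT3-L3T2 and AtCMT3-L3T2b, against 18.5, 16.0 and 10.4 TPM in AtCMT3-L1T5, AtCMT3-L2T5 and AtCMT3-L2T6, a log2 difference of -2.15 ± 0.33. NUDT6, a nudix hydrolase, stood at 0.953 TPM in AtCMT3-L3T2 and was listed at 0 in AtCMT3-L3T2b, against 2.98, 2.83 and 4.37 TPM. WRKY40, a defence and abscisic acid factor, was on the other side at 9.75 and 5.18 TPM against 4.89, 3.51 and 1.59 TPM, with a gap of only 0.07. AAO3, the last enzyme of abscisic acid synthesis, stood at 18.2 and 21.1 TPM against 15.0, 15.1 and 15.0 TPM. Of the 13 genes on the stress list, 2 (15.4%) were separated higher, 1 (7.69%) lower and 10 overlapped, beside 26.9% higher and 9.26% lower of all genes, with a median difference of 0.19 beside 0.17 over all genes.

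Of the remaining lower genes, the class 1 hemoglobin gene HB1 (AT2G16060), induced by low oxygen, was listed at 0 in both AtCMT3-L3 plants, against 2.14, 3.88 and 7.07 TPM in AtCMT3-L1T5, AtCMT3-L2T5 and AtCMT3-L2T6. The leucine-rich repeat gene AT1G13910 stood at 0.235 and 0.231 TPM against 2.67, 4.31 and 4.29 TPM, and AT1G67400, of the ELMO family, at 0.134 and 0 TPM against 1.71, 5.59 and 4.99 TPM. These 3 genes were near 0 in both sisters and at a few TPM in every lower expresser. The carboxypeptidase-like AT2G33530 stood at 2.23 and 0 TPM against 5.38, 5.14 and 5.84 TPM, and AT1G25500, of the choline transporter-like family, at 4.04 and 6.53 TPM against 12.5, 13.3 and 17.4 TPM.

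**Figure D3:**
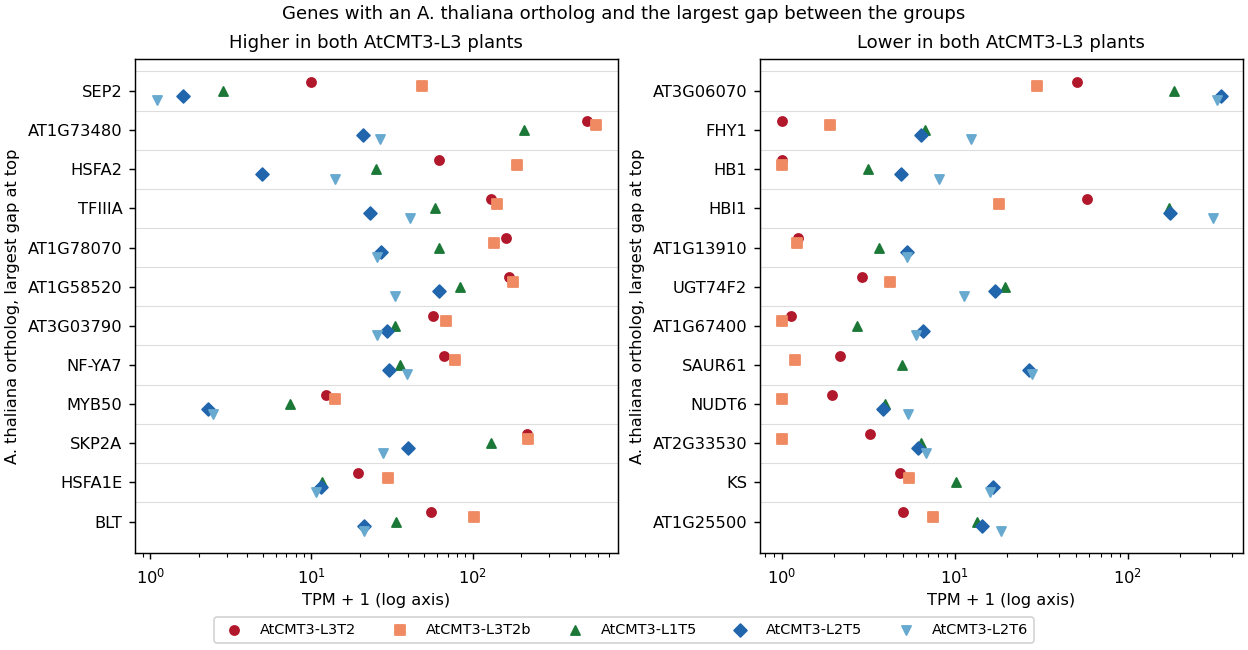
TPM + 1 on a log axis (x) of the 12 genes higher (left panel) and the 12 genes lower (right panel) in both AtCMT3-L3 plants that have an A. thaliana ortholog and the widest gap (y, widest at top), with 1 point per plant. The red and orange AtCMT3-L3 points lie clear of the others in every row, and the green AtCMT3-L1T5 point is often the nearest to them, as at AT1G73480 with 513 and 581 TPM against 207, 20.0 and 25.8 TPM.

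At genes of protein synthesis the difference between the groups lay in lineage 2. On the ribosome list, 4 of the 7 members tested (57.1%) were separated higher and 0 lower, beside 26.9% and 9.26% of all genes, and all 7 had a positive log2 difference, from 0.69 to 1.22, with a median of 0.96 beside 0.17 over all genes. Yet RPSAa, a protein of the 40S subunit, stood at 471 and 469 TPM in the AtCMT3-L3 plants and at 457 TPM in AtCMT3-L1T5, against 142 and 187 TPM in AtCMT3-L2T5 and AtCMT3-L2T6. RPL10aB of the 60S subunit stood at 339 and 326 TPM in AtCMT3-L3 and 322 TPM in AtCMT3-L1T5, against 101 and 152 TPM in the lineage 2 plants. AtCMT3-L1T5 was thus level with the sisters, and the 4 members counted as separated (RPSAa, RPL10aB, RACK1A and RACK1B) had gaps of only 0.04, 0.02, 0.02 and 0.06. RPS4A, RPL28A and RPL24A overlapped, the first at 178 and 177 TPM in AtCMT3-L3 against 186 TPM in AtCMT3-L1T5 and 76.1 and 93.2 TPM in lineage 2. The summed level of the 8 listed genes was 1676 and 1610 TPM in the AtCMT3-L3 plants, against 1646, 522 and 725 TPM in AtCMT3-L1T5, AtCMT3-L2T5 and AtCMT3-L2T6. The 2 RACK1 genes, like the 2 RPSA genes, are related copies in A. thaliana, and reads could be split between such copies. Their sequences were not compared here. RPSAb, too low to be tested, stood at 0.396 to 1.59 TPM in the 5 plants, far below RPSAa. Without AtCMT3-L1T5 the list's median was 1.41, and no leave-one-out value fell below 0.58.

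Of the 6 starch genes, LSF1, AMY3, SBE2.1 and GBSS1 had AtCMT3-L1T5 near the sisters and lineage 2 apart, in both directions. LSF1, a protein of starch breakdown, stood at 0.768 and 1.54 TPM in AtCMT3-L3T2 and AtCMT3-L3T2b and 0.554 TPM in AtCMT3-L1T5, against 19.2 and 14.3 TPM in AtCMT3-L2T5 and AtCMT3-L2T6. The chloroplast amylase AMY3 stood at 17.1 and 17.2 TPM in the AtCMT3-L3 plants, 17.6 TPM in AtCMT3-L1T5, and 83.5 and 63.7 TPM in the lineage 2 plants. The branching enzyme SBE2.1 stood at 28.0 and 28.0 TPM, against 22.2, 83.2 and 48.0 TPM in AtCMT3-L1T5, AtCMT3-L2T5 and AtCMT3-L2T6. All 3 were high in lineage 2 alone. GBSS1, the granule-bound starch synthase, had the opposite pattern at 1496 and 989 TPM in AtCMT3-L3 and 1302 TPM in AtCMT3-L1T5, against 566 and 434 TPM. TPS1, which makes trehalose-6-phosphate, stood at 46.3 and 31.1 TPM against 28.0, 23.7 and 25.8 TPM, with the 3 lower expressers alike, and the amylase gene BAM6 at 41.4 and 47.9 TPM against 41.5, 52.0 and 34.0 TPM. TPS1 was separated higher and AMY3 lower, 16.7% of the list in each direction beside 26.9% and 9.26% of all genes, and the other 4 members overlapped. JAZ1, a repressor of the jasmonate response named because limma called it only without AtCMT3-L1T5, stood at 87.3 and 73.9 TPM in AtCMT3-L3 and 83.1 TPM in AtCMT3-L1T5, against 10.01 and 7.93 TPM in lineage 2.

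**Figure D4:**
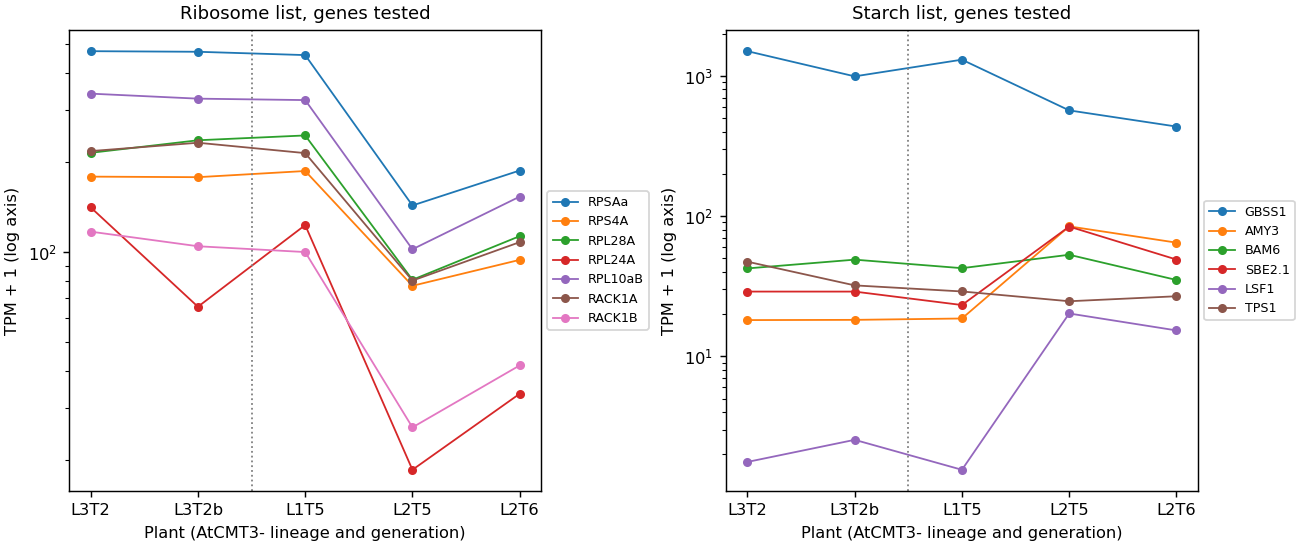
TPM + 1 on a log axis (y) of the tested members of the ribosome list (left panel) and the starch list (right panel) in each plant (x, AtCMT3-L3 plants left of the dotted line), with 1 line per gene that joins its values and implies no order in time. The ribosome genes stand at like levels in the sisters and in AtCMT3-L1T5 and lower in lineage 2 (RPSAa 471, 469, 457, 142 and 187 TPM), and LSF1, AMY3 and SBE2.1 are high in lineage 2 alone.

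None of the tested genes on the list of silencing and chromatin genes had a gap of at least 1 between the groups. Only 1.47% of all genes had such a gap, so a list this short would seldom hold any. The list holds only genes in the part of the ortholog table at hand. CMT2, MET1 and DRM2, the other DNA methyltransferases that the study describes, are not on it. Of the 22 orthologs listed, 21 were tested, and 9 (42.9%) were separated higher and 2 (9.52%) lower, beside 26.9% and 9.26% of all genes. The median difference was 0.17, the same as over all genes, and 10 members lay above that median. All log2 differences fell between -0.42 and 0.64, with adjusted p from 0.412 to 0.994 in limma. The RNA-directed DNA methylation genes showed no common direction. NRPE1, the largest subunit of RNA polymerase V, stood at 21.2 and 34.8 TPM in the AtCMT3-L3 plants against 19.2, 20.4 and 17.6 TPM in AtCMT3-L1T5, AtCMT3-L2T5 and AtCMT3-L2T6. The remodeller DRD1 stood at 10.4 and 9.32 TPM against 9.73, 11.8 and 10.5 TPM, and the argonaute AGO6 at 0.600 and 0.954 TPM against 1.93, 2.18 and 0.397 TPM. SUVR4, an H3K9 methyltransferase, stood at 11.1 and 11.7 TPM against 10.4, 9.10 and 10.01 TPM, and MOM1, which keeps heterochromatic genes silent, at 8.27 and 10.7 TPM against 9.05, 9.31 and 7.68 TPM.

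Of the other members, DCL1, FVE, PIE1, HAC12, HAC1, ATX2 and FAS1 were separated higher, with differences from 0.27 to 0.64. FAS1, a subunit of chromatin assembly factor 1, had the largest difference, 0.64 ± 0.42, at 3.13 and 3.76 TPM against 3.11, 2.35 and 0.674 TPM, with AtCMT3-L2T6 well below the other 4 plants. AGO1, the main microRNA argonaute, was separated lower at 90.9 and 97.8 TPM against 115, 121 and 112 TPM, as was the centromere protein CENP-C at 1.64 and 1.27 TPM against 2.44, 2.60 and 1.86 TPM. HYL1, SE, JMJ16, JMJ17, SYD, HUB1 and TPL overlapped between the groups. The centromeric histone CENH3 was too low to be tested, listed at 0 in both AtCMT3-L3 plants and in AtCMT3-L2T6. Of the 3 IBM1-like genes, the 2 that could be tested overlapped between the groups. Thhalv10023846m, the most abundant, stood at 12.6 and 12.1 TPM against 11.1, 10.5 and 13.7 TPM, Thhalv10029199m at 4.56 and 4.21 TPM against 4.44, 3.34 and 3.05 TPM, and Thhalv10020080m stayed below 1 TPM in all 5 plants. TUB4 (Thhalv10003210m), a tubulin gene used as the reference in quantitative PCR of these lines, stood at 78.8 and 72.1 TPM against 71.9, 57.3 and 171 TPM, so AtCMT3-L2T6 stood apart.

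**Figure D5:**
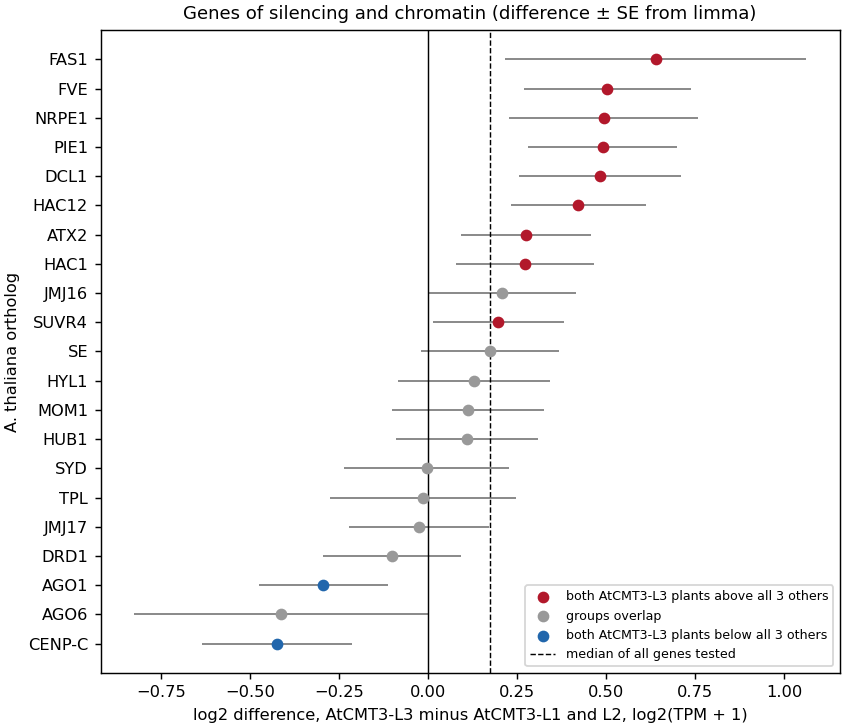
log2 difference, AtCMT3-L3 minus AtCMT3-L1 and AtCMT3-L2, on log2(TPM + 1) (x axis) with its standard error from limma (bars) for the 21 tested orthologs of silencing and chromatin genes (y axis), coloured by whether the groups overlap. The values lie between -0.42 and 0.64 on both sides of 0.17, the median of all genes tested (dashed line).

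On the remaining lists no member was separated lower, and the counts separated higher stand beside 26.9% of all genes. Of 14 photosynthesis genes tested, LHCB7, PBCP and GOX2 (21.4%) were separated higher, with a median difference of 0.10 beside 0.17 over all genes. LHCB7, a light-harvesting protein, stood at 103 and 105 TPM in the AtCMT3-L3 plants against 78.1, 76.7 and 73.7 TPM in the others. Of 10 genes of dividing cells tested, the cyclin CYCA3;4 (11.0 and 11.6 TPM against 7.74, 5.79 and 8.40 TPM) and the replication helicase gene MCM4 (4.45 and 5.86 TPM against 3.71, 2.17 and 1.20 TPM) were separated higher (20.0%), with a median of 0.25. Of 6 cell wall genes, the callose synthases GSL10 and GSL8 were separated higher (33.3%), GSL10 at 41.8 and 44.3 TPM against 32.4, 19.7 and 23.8 TPM, with a median of 0.03. Of the 3 metal genes, the manganese transporter MTP11 was separated higher (33.3%) at 97.6 and 73.3 TPM against 54.8, 46.3 and 41.9 TPM.

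The gene body methylation status of the A. thaliana ortholog was set beside the separation. All genes with such a status had gained CHG methylation in plants of lineages 1 or 2, and only part of that table was at hand, so the counts are a description with no test. Of 694 tested genes whose ortholog has gbM, 213 (30.7%) were separated higher and 34 (4.90%) lower, and 0 had a gap of at least 1. Of 1000 tested genes whose ortholog is unmethylated, 275 (27.5%) were separated higher and 95 (9.50%) lower, and 13 (1.30%) had a gap of at least 1, 5 higher and 8 lower. Over all genes the shares were 26.9% higher, 9.26% lower and 1.47% with such a gap. The median difference was 0.18 for gbM orthologs and 0.19 for unmethylated ones, beside 0.17 over all genes.

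The AtCMT3-L3 sisters share lineage and generation, and their difference shows how far 2 such plants lie apart. In AtCMT3-L3T2b, 320 genes (1.84%) were higher and 125 (0.72%) lower than in AtCMT3-L3T2 by 2 or more on the log2(TPM + 1) scale, with 1 plant on each side and therefore no test. The named genes were chosen after their values were seen. HB7, a homeobox factor induced by water deficit, stood at 461 TPM in AtCMT3-L3T2b against 44.4 TPM in AtCMT3-L3T2. On the same side lay ICS1, which makes the precursor of salicylic acid, at 29.8 against 7.18 TPM and the ABC transporter gene PEN3 of non-host resistance at 149 against 33.7 TPM. The factor WRKY33 stood at 44.6 TPM in AtCMT3-L3T2b against 13.4 TPM in AtCMT3-L3T2, and the glutathione transferase GSTF7 (AT1G02920) at 23.1 against 3.03 TPM. GDPD1 (AT3G02040), a phosphodiesterase of phosphate starvation, stood at 25.7 TPM in AtCMT3-L3T2b and was listed at 0 in AtCMT3-L3T2. On the lower side, the lipid transfer protein gene LTP6 (AT3G08770) stood at 95.6 TPM in AtCMT3-L3T2b against 385 TPM in AtCMT3-L3T2, and the phloem protein gene SEOR2 (AT3G01670) at 4.81 against 20.6 TPM. At all 8 of these genes the lower expressers overlapped the sisters.

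The sisters also differed at some of the genes that separated them from the lower expressers. Of the 92 higher genes with a gap of at least 1, the sisters lay 1 or more apart on the log2 scale at 13 (14.1%), and of the 164 lower genes at 31 (18.9%), beside 1867 (10.8%) of all 17362 genes. The shares were not tested against each other. AtCMT3-L3T2b was the further from the lower expressers at 64 of the 92 higher genes and at 77 of the 164 lower genes. Its library also had the higher median of log2(TPM + 1), 4.41 against 4.28 in AtCMT3-L3T2. Of all genes tested, 1090 were higher and 777 lower in AtCMT3-L3T2b by 1 or more. A link to the AtCMT3 level was not tested.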

How the data were processed

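RNA-seq values of 5 plants that express AtCMT3 were analysed. The authors trimmed reads with Trimmomatic, mapped them with HISAT2 against version 1.0 of the E. salsugineum genome and computed gene values with StringTie. The submitters' processing notes give HISAT2 2.1.0 and StringTie 1.3.3b. The deposited table holds 26352 genes under the header FPKM. Each of the 5 columns used sums to 1000000 and was therefore read as TPM as deposited. The other 5 columns, which the authors deposited as FPKM, were read for their sums only, and 0 columns had no sample. The table gives no reads per gene, so no count model was used, and the number of reads behind a value is unknown here.

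Values were taken as log2(TPM + 1). Genes with a mean of at least 1 TPM over the 5 plants were tested (17362, AtCMT3 left out because it placed the plants) with limma 3.58.1 in R 4.3.3 (lmFit and eBayes, two-sided, Benjamini-Hochberg, threshold 0.05). A gene was counted as separated when the lowest plant of 1 group exceeded the highest of the other, and a gap of at least 1 or 2 was counted on the log2 scale. The fit was tested on simulated data with changes of known size. Alternatives were a pseudocount of 0.1, no filter, a minimum mean of 5, a common median per library, each plant left out, lineage means as units, the lineage as a block, eBayes with trend and robust, and a threshold of 0.1.

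The comparison, its genes and its lists were chosen with earlier results of these data known. Gene lists had been planned by RefSeq product name, but the RefSeq table used here shares no identifier with the expression table and holds no product names. They were therefore built, with the expression values already at hand, from A. thaliana loci in the study's table of genes that gain CHG methylation, of which a part was used here. Roles are those of the A. thaliana genes. Named genes are AtCMT3, TUB4, the 3 IBM1-like genes, the 12 separated genes with the widest gap in each direction that have an ortholog, 2 without a name in each direction, up to 4 separated members of each list and the silencing list. The planned rule ranked all genes, and the condition on an ortholog was added with the values at hand. Genes named for other reasons were chosen after their values were seen. Figures were drawn with matplotlib 3.10.9 in Python 3.11.15.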

Additional observations from a re-analysis of the deposited data

How the results depend on the processing

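No paired analysis was possible because the groups hold different lineages and generations, so no plant of 1 group has a partner in the other. The count of 0 genes called by limma held with no filter, a minimum mean of 5, a common median, lineage means and eBayes with trend and robust. It was 2 higher and 2 lower with a pseudocount of 0.1, 2 and 2 with the lineage as a block (consensus correlation -0.29) and 1 and 1 at a threshold of 0.1. Leaving out 1 plant each gave 0 to 21 higher and 0 to 43 lower, the highest both without AtCMT3-L1T5, and 1 lower gene without AtCMT3-L2T5. Separated genes numbered 2831 higher and 2610 lower with a common median and 8368 and 3531 with lineage means, and 5093 to 8072 higher and 1888 to 3616 lower with 1 plant left out. With a gap of at least 1 there were 297 higher and 396 lower with lineage means, 8 and 19 at a gap of at least 2, and 108 to 677 and 201 to 601 with 1 plant left out. Where a plant is left out or lineages are averaged, fewer values have to be separated.

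Between the sisters, a cutoff of 1 gave 1090 genes higher and 777 lower in AtCMT3-L3T2b, and ratios without a pseudocount 481 and 284. With a common median the list medians were 0.019 for silencing and -0.051 for photosynthesis, beside 0.019 over all genes. SEP2, the only floral gene tested, had a difference of 4.99 with a pseudocount of 0.1 and 2.53 to 4.82 with 1 plant left out. With 1 plant left out the heat median lay between 0.0088 and 0.65 and the stress median between -0.34 and 0.47, the lowest value without AtCMT3-L3T2b. Named genes whose direction turned with a common median were Thhalv10023846m at -0.083, HYL1 at -0.025, MOM1 at -0.043, HUB1 at -0.044 and FIT at -0.042. With lineage means they were JMJ17 at 0.017 and SYD at 0.042, and with the block TPL at 0.023. With 1 plant left out the log2 differences spanned -0.55 to 0.23 for TUB4, -0.059 to 0.28 for MOM1, -0.11 to 0.042 for JMJ17, -0.20 to 0.19 for SYD, -0.033 to 0.25 for HUB1, -0.17 to 0.16 for TPL, -0.64 to 1.02 for WRKY33, -1.26 to 0.65 for ICS1, -1.64 to 0.47 for PEN3, -0.73 to 2.62 for HB7, -0.94 to 3.80 for GDPD1, -0.67 to 1.91 for GSTF7, -1.33 to 0.56 for SEOR2 and -0.12 to 1.88 for LTP6. The cause of these changes was not tested.

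AtCMT3-L3 is 1 lineage with 2 plants, set against 2 lineages with 3 plants. Without 1 of the AtCMT3-L3 plants, limma takes the lone plant to vary like the others, and with lineage means AtCMT3-L3 is a single value. The number of reads behind each value is unknown here, which leaves the precision of low values unknown.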
